A study of Mus musculus with 12 samples.

Results

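The 10 genes described here make up the core of the oxygen-sensing pathway: Hif1a and its partner Arnt, 5 genes whose proteins restrain HIF (Vhl, Egln1, Egln2, Egln3 and Hif1an), and 3 genes that HIF switches on (Bnip3, Bnip3l and Vegfa). They were taken by name from a table of total cellular mRNA that lists 29486 mouse genes, and all 10 were among the 15614 genes that reached a value of 10 in at least 4 libraries. The table covers 12 mRNAseq libraries of splenic B cells from C57BL/6Babr mice, with 4 replicate libraries in each of 3 conditions. Cells were activated with LPS alone (10 μg/ml, 48 h), or received etoposide (20 μM) for 4 h after LPS. A further set received the ATM kinase inhibitor KU55933 (10 μM) after 47 h of LPS and 1 h ahead of etoposide. LPS is a bacterial mitogen that drives B cells into division, and etoposide blocks topoisomerase II and so breaks DNA. All cells had LPS, no cells received KU55933 without etoposide, and the labels do not state whether cells with LPS alone were kept for the further 4 h.

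HIF-1 is a pair of proteins, Hif1α and Arnt. In oxygen, the prolyl hydroxylases encoded by the Egln genes mark Hif1α, and the Vhl protein, part of a ubiquitin ligase, binds the marked form and sends it for degradation. Hif1an encodes an asparaginyl hydroxylase that keeps the remaining Hif1α from binding its co-activators. When oxygen is low these steps slow, and HIF-1 binds short hypoxia response elements near genes of glycolysis, mitophagy and vessel growth. Egln1, Egln3 and Bnip3 are themselves well-known HIF targets, so that part of the pathway feeds back on itself. Because most of this control acts on the Hif1α protein, the amount of Hif1a mRNA says little about HIF activity, which was not measured here.

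The values limit what can be said. Within a condition, the values of any 2 libraries were proportional over all genes, their log2 ratio ranging by at most 2.8e-14. Each value is therefore 1 fitted mean of the condition multiplied by a factor of the library, and the table holds no spread between replicates. Deposited totals ran from 20.7 M to 23.9 M per library with LPS, from 22.5 M to 30.6 M with etoposide and from 20.4 M to 25.1 M with KU55933 and etoposide (both compounds), and the size factors from 0.838 to 0.967, 0.957 to 1.30 and 0.900 to 1.11. After division by these factors the 4 libraries of a condition have 1 value, called its normalized count here. No test between conditions was possible with this table. Differences are given as log2 of the normalized count plus 1, with a counting standard error (SE) that covers the sampling of reads only and is a lower limit of the true error. Genes past 1.5-fold (0.58 on the log2 scale) were counted and set beside the share of all genes past it. The factors themselves are uncertain, and each difference is therefore also given as its range over 6 scalings where it matters.

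The B cell identity of the libraries was checked with 7 markers, all of them present, whose summed normalized count was 206987 with LPS, 142727 with etoposide and 148767 with both compounds. Some B cell genes moved strongly: Pax5, the B cell identity factor, had 5408, 1139 and 1175, and Cd22 had 23521, 4343 and 5095. Cd3d, Cd3e, Cd3g, Cd4 and Cd8a were under 10 in every condition, and 1 of 6 T cell markers (Lck) passed the filter. The 6 macrophage markers summed to 407.4, 475.3 and 434.5, and the 2 NK cell markers of the table summed to 0.7757, 0.9964 and 1.434. Red blood cell markers summed to 213, 188.5 and 117.4, and megakaryocyte markers, nearly all Itga2b, to 44.67, 392.6 and 193.7. Endothelial markers summed to 3642, 1162 and 2006, mostly Pecam1. The part of any of these cells in the values of the HIF pathway genes was not tested, and fewer cells of a type cannot be told apart from less RNA per cell.

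Hif1a mRNA was abundant and moved little. Hif1a (ENSMUSG00000021109) lies on chromosome 12 of GRCm38 from 73901375 to 73947530 on the plus strand. The deposited values for replicates 1 to 4 were 2159, 2395, 2492 and 2245 with LPS, 2880, 3228, 3909 and 3129 with etoposide, and 2531, 2854, 3058 and 3108 with both compounds. The 4 values of a condition differ only by the library factors, so that their range shows depth and no replicate spread. As deposited, all values with etoposide, with or without KU55933, lie above those with LPS. Divided by the factors, they became 2576, 3009 and 2812. Hif1a was thus 1.17 times its LPS level with etoposide (log2 difference 0.22, counting SE 0.020), which stayed above 0 but ran from 0.08 to 0.30 over the 6 scalings. With KU55933 it was 0.10 below etoposide alone (log2 difference −0.10, counting SE 0.018). Per kb of exon, Hif1a stood at the 78.1 percentile of the genes kept with LPS, 82.1 with etoposide and 81.3 with both compounds. An antisense gene that shares 330 bases of exon with Hif1a, Gm15283, had a normalized count of 35.67 with LPS. A protein-coding gene on the same strand, Gm49321, shares 148 bases (2.51% of the exon bases of Hif1a) in the annotation used here for positions. No row was found under that name among the counted genes. It can share reads with Hif1a also in a stranded library.

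Arnt, the constitutive partner that Hif1α needs to bind DNA, differed more than Hif1a when the inhibitor was added. Arnt (ENSMUSG00000015522, plus strand, chromosome 3, 95434388 to 95497240) had 2360 with LPS, 2020 with etoposide and 2872 with both compounds. It was lower with etoposide (−0.22, counting SE 0.022) and higher when the inhibitor was added (0.51, counting SE 0.020), so that the value with both compounds exceeded that with LPS. The ratio of Arnt to Hif1a, which no library factor can change, was 0.916, 0.671 and 1.02 in the 3 conditions.

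**Figure D1:**
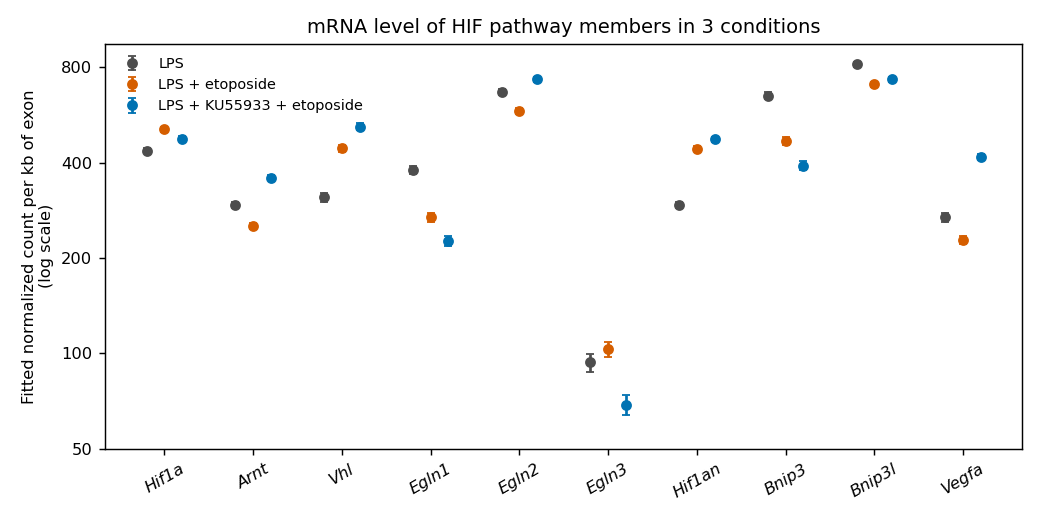
Fitted normalized count per kb of merged exon (y axis, log scale) of each of the 10 genes (x axis) in the 3 conditions; points are the single fitted value of each condition and bars are 95% intervals for counting error only. Bnip3l was the highest and Egln3 the lowest gene in every condition, and Vegfa moved up the order with KU55933, from 228.5 to 416.7.

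Among the genes that restrain HIF, Vhl and Hif1an were higher with etoposide and Egln1 was lower. Vhl (ENSMUSG00000033933, plus strand, chromosome 6, 113623959 to 113631633), the substrate receptor of the ligase, measured 933.5 (normalized count) with LPS, 1330 with etoposide and 1559 with both compounds. Hif1an (ENSMUSG00000036450, plus strand, chromosome 19, 44562850 to 44576274) had 1941, 2929 and 3129. The difference with etoposide was 0.51 for Vhl (counting SE 0.031) and 0.59 for Hif1an (counting SE 0.021). Over the 6 scalings these ran from 0.36 to 0.58 and from 0.45 to 0.67. Both genes were a little higher again with the inhibitor, by 0.23 and 0.09.

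The 3 prolyl hydroxylase genes did not move together. Egln1 (ENSMUSG00000031987, minus strand, chromosome 8, 124908587 to 124949324), which encodes the enzyme taken to be the main oxygen sensor in most cells, had 1361, 966.4 and 814. Its difference was −0.49 with etoposide (counting SE 0.030) and −0.74 with both compounds against LPS (counting SE 0.032), a value 0.598 times that of LPS. Egln2 (ENSMUSG00000058709, minus strand, chromosome 7, 27158658 to 27166802) had 1873, 1633 and 2053, so that the value was below LPS with etoposide (−0.20) and above it with the inhibitor (0.13). Egln3 (ENSMUSG00000035105, minus strand, chromosome 12, 54178981 to 54203860), the most strongly hypoxia-inducible of the family in many cells, was the scarcest, with 249.4, 274.4 and 183.1. It lay close to LPS with etoposide (0.14, counting SE 0.064), which fell below 0 with 2 of the 6 scalings (lowest −0.01), and was 0.58 lower with KU55933 than with etoposide alone (log2 difference −0.58, counting SE 0.067).

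Compared within the same libraries, the balance among these genes shifted. The ratio of Egln1 to Egln2 was 0.727 with LPS, 0.592 with etoposide and 0.397 with both compounds. That of Egln3 to Egln2 was 0.133, 0.168 and 0.0892. Hif1an went from 1.43 times Egln1 with LPS to 3.03 and 3.84 times, and Vhl from 0.686 times Egln1 to 1.38 and 1.92 times. With etoposide the ratio of Vhl to Egln1 was therefore 2.01 times that with LPS, and the ratio of Hif1an to Egln1 2.13 times. The counting SE of these last changes was 0.044 and 0.037 on the log2 scale, while it reached 0.075 for ratios with the scarce Egln3. These pairs were chosen after their values were seen. A library factor cancels in them, quantile normalization could still change them, and the table used here holds no spread between replicates for them.

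**Figure D2:**
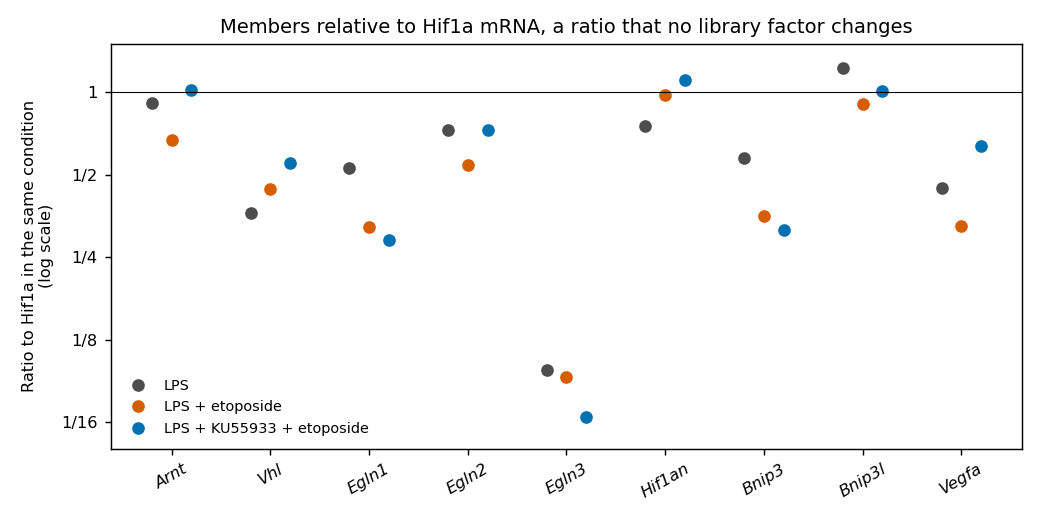
Ratio of the normalized count of 9 genes to that of Hif1a in the same condition (y axis, log scale), 1 point per condition; a factor applied to a library cancels in this ratio. With both compounds the ratio for Egln1 was 0.290 and for Bnip3 0.315, down from 0.528 and 0.573 with LPS, while that for Vegfa went from 0.447 to 0.635 and that for Vhl from 0.362 to 0.554.

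The 3 target genes were all lower with etoposide than with LPS, and parted when KU55933 was added. With KU55933 under etoposide the differences were −0.26 for Bnip3, 0.05 for Bnip3l and 0.87 for Vegfa. Bnip3 and Bnip3l encode related proteins of the outer mitochondrial membrane that tie damaged mitochondria to the autophagy machinery. Bnip3 (ENSMUSG00000078566, minus strand, chromosome 7, 138890836 to 138909519) measured 1475 (normalized count) with LPS, 1063 with etoposide and 886.1 with both compounds. The differences from LPS were −0.47 (counting SE 0.029) and −0.73 (counting SE 0.031). Bnip3l (ENSMUSG00000022051, minus strand, chromosome 14, 66985239 to 67008877) had 3161, 2728 and 2831, with differences of −0.21 and −0.16. Its second value lay above 0 with quantile normalization (0.01). The ratio of Bnip3 to Bnip3l was 0.467, 0.390 and 0.313. An antisense gene shares 22.3% of the exon bases of Bnip3, and processed pseudogenes of Bnip3l and Vhl are annotated elsewhere in the genome. No rows were found for these under the names searched among the counted genes, and how shared reads were assigned is not given in the sources used here.

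Vegfa, the growth factor that recruits blood vessels, was the member that differed most with the inhibitor. Vegfa (ENSMUSG00000023951, minus strand, chromosome 17, 46016993 to 46032369) had deposited values of 965, 1071, 1114 and 1004 with LPS, of 937, 1050, 1272 and 1018 with etoposide, and of 1607, 1813, 1942 and 1974 with both compounds. As deposited, the values with the inhibitor lie above those of the other conditions, which overlap, but here too the range within a condition shows the library factors and no replicate spread. The normalized counts were 1152, 979.2 and 1786. Vegfa was 0.23 lower with etoposide than with LPS (log2 difference −0.23, counting SE 0.031), and 1.82 times as high with KU55933 as with etoposide alone (0.87, counting SE 0.028), a difference between 0.86 and 0.94 over the 6 scalings. Among all genes kept, 97.3% had a lower difference in that comparison.

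Of the 10 members, 1 was at least 1.5-fold higher with etoposide than with LPS (Hif1an) and none was 1.5-fold lower, while 23.4% of all genes kept were that much higher and 14.4% lower. The median difference of the members was −0.21, against 0.04 for all genes. With KU55933 under etoposide, 1 member was past 1.5-fold higher (Vegfa) and none was past it lower, against 6.93% and 11.9% of all genes, and the medians were 0.07 and −0.05. Between both compounds and LPS, 3 members were past 1.5-fold higher (Vhl, Hif1an and Vegfa) and 2 lower (Egln1 and Bnip3), against 22.0% and 14.2% of all genes, with medians of 0.13 and 0.07. With so few members these counts do not set the pathway apart from other genes. The members' own counts depend on the scaling. With etoposide, Hif1an was past 1.5-fold with 4 of the 6 scalings. TMM factors left 0 members past it higher and 1 lower (Egln1), and size factors from all genes left 0 higher and 2 lower (Egln1 and Bnip3). With KU55933 under etoposide, quantile normalization gave 2 higher and 1 lower. Between both compounds and LPS, TMM gave 2 higher and 2 lower, quantile normalization 3 and 3, and factors from all genes 1 and 2. The scaling moves the counts of all genes: with etoposide, 3651 were higher and 2242 lower with the factors used here, 3192 and 2907 with TMM factors, 2728 and 3394 after quantile normalization, 3066 and 3138 with size factors from all genes, and 5262 and 1147 with the values as deposited. The median of all genes moved by −0.11, −0.14, −0.15 and 0.28 in these. For KU55933 under etoposide the numbers were 1082 higher and 1863 lower, 1461 and 1508 after quantile normalization, and 811 and 2394 as deposited. For both compounds against LPS they were 3430 and 2222, 2639 and 2737 with quantiles matched, 4194 and 1619 using library totals, and 4675 and 1398 as deposited. The comparisons share libraries in pairs, so that their values are not independent.

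**Figure D3:**
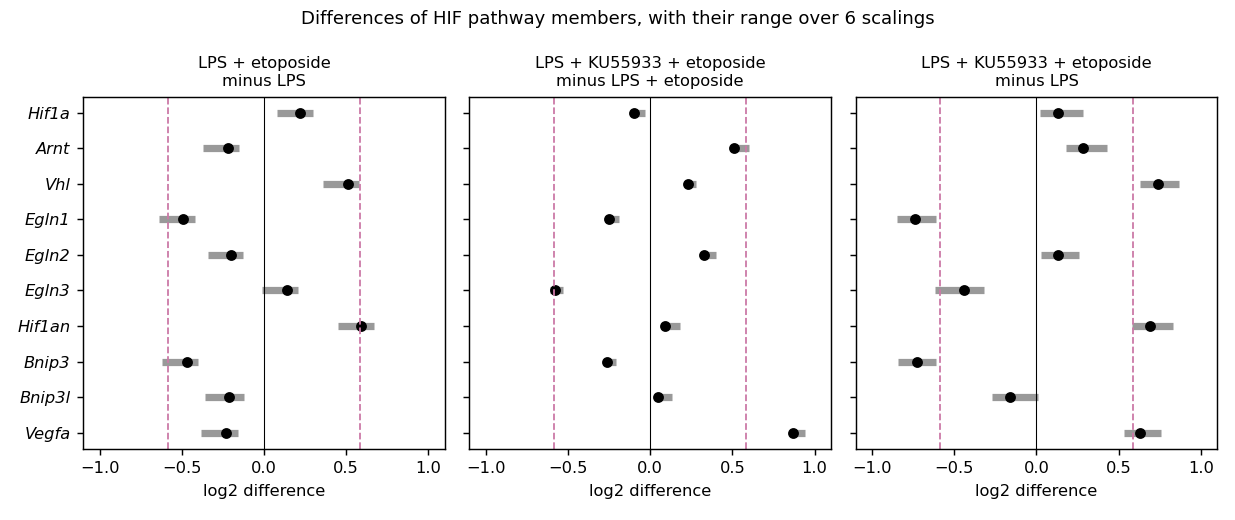
Log2 differences (x axis) of the 10 genes (y axis) in the 3 comparisons; points are the values given in the text, grey bars their range over 6 scalings, and dashed lines 1.5-fold. Vegfa in the middle panel and Vhl, Egln1 and Bnip3 in the right panel lie past 1.5-fold with all 6 scalings.

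Set between LPS and etoposide, the values with KU55933 fell in each of 3 places. With the factors used here Hif1a and Bnip3l lay between both, Vhl, Hif1an, Egln1 and Bnip3 lay further from LPS than with etoposide alone, and Arnt, Egln2, Egln3 and Vegfa lay on the other side of LPS. Quantile normalization moved Bnip3l to the other side of LPS and Egln3 to further from it, and size factors from all 29486 genes did the latter, while the places of the remaining genes held with all 6 scalings.

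Per kb of exon, Bnip3l was the most abundant member (819.1 with LPS, 707.0 with etoposide and 733.5 with both compounds) and Egln3 the least (93.7, 103.1 and 68.79). With LPS the order between them was Egln2, Bnip3, Hif1a, Egln1, Vhl, Arnt, Hif1an and Vegfa. Egln2 and Bnip3 (669.1 and 651.2) and Arnt and Hif1an (294.7 and 293.9) did not differ beyond counting error. With etoposide Vhl and Hif1an (443.9 and 443.4) stood above Egln1 (268.9). With both compounds Bnip3l and Egln2 (733.5 and 733.1) were level, as were Hif1a and Hif1an (476.9 and 473.6), and Egln1 (226.5) ranked second from the bottom.

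Egln1 and Bnip3 followed almost the same course. Their ratio was 0.923 with LPS, 0.909 with etoposide and 0.919 with both compounds, within counting error (0.042 to 0.046 on the log2 scale). Over their 2 differences from LPS they lay 0.023 apart on the log2 scale. This pair was chosen after its values were seen. Among genes with a mean of at least 100, 120 lay within 0.1 of Egln1. Vhl and Hif1an were 0.097 apart, with 78 genes within 0.1 of Vhl. For Hif1a the 5 nearest genes were Gm14279, Pigq, Rpl35a-ps2, 4930453N24Rik and Rps24-ps3, at distances of 0.0029 to 0.0123. Distances were taken over the 2 log2 differences from LPS, and 415 of the 10873 other genes with a mean of at least 100 (3.82%) lay within 0.1. The names ending in ps are pseudogenes, which can share reads with their parent genes.

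Promoters of Egln1 and Bnip3, which followed a like course, and of Egln2 and Hif1a, which did not, are shown because hypoxia response elements carry the letters ACGTG or GCGTG. These were searched on both strands in the 250 bases before each RefSeq start site (GRCm38.p6). The letters CACGTG hold a match on each strand. Of the 32851 windows, 38.6% held a match. Positions are counted back from the start site, and the RefSeq start of Hif1a lies inside the longer gene given above. Among the 11 windows found for 9 of the members, 8 (72.7%) held a match, and 7 of the 9 genes had one in at least 1 window. Egln2 and Vegfa have more than 1 window each. The 38.6% covers all windows, not only those of genes kept, and base composition was not matched. These shares can therefore not be compared directly. Capitals mark the matches, which read as CACGT or CACGC when they lie on the other strand.

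Bnip3 (chr7:138909525-138909635, minus strand, from position −129), with 5 matches: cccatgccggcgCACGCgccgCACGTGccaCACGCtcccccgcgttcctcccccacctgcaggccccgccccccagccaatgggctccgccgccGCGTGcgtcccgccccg

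Egln1 (chr8:124949306-124949392, minus strand, from position −138), with 2 matches: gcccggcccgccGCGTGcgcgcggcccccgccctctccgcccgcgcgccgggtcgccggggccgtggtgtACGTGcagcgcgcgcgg

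Egln2 (chr7:27166820-27166965, minus strand, from position −163), with 4 matches, shown for contrast: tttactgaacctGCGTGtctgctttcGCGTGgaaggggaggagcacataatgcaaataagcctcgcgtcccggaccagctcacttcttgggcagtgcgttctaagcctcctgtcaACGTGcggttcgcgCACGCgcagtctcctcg

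Hif1a (chr12:73907720-73907813, plus strand, from position −147), with 3 matches: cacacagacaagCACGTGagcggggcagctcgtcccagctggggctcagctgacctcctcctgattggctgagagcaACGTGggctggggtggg

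Vhl and Hif1an, both higher with etoposide, held no match in this window. Hif1a (0.22) and Egln3 (0.14), also above LPS with the factors used here, held 3 and 1. Egln2, whose course differed from that of Egln1, held 4 in the window shown and 1 at its other start, and the window at the second start of Vegfa held 2 while that at the first held none. Arnt held 1 GCGTG and Egln3 1 ACGTG. A match here is a description of letters and no site of HIF binding, which was not measured.

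Genes around the pathway were taken from 2 lists. The first held 23 genes of HIF machinery outside the members, such as the other α subunits, the partners of Vhl in the ligase and the co-activators. Of its 22 genes past the filter, 4 were at least 1.5-fold higher with etoposide and 2 lower, with a median difference of 0.04, against 23.4% and 14.4% of all genes and their median of 0.04. With KU55933 under etoposide none was 1.5-fold higher and 2 were lower (median −0.12), against 6.93% and 11.9% of all genes (median −0.05). Between both compounds and LPS 4 were higher and 3 lower (median −0.09), against 22.0% and 14.2% (median 0.07). Siah2, a ubiquitin ligase for Egln proteins, measured 5038 (normalized count) with LPS, 2483 with etoposide and 3113 with both compounds, a difference of −1.02 with etoposide. The other genes of the list past 1.5-fold with etoposide are named here after their values were seen. Usp20, a deubiquitinase that acts on Hif1α, had 385.4, 879.3 and 897.1 (difference 1.19 with etoposide, counting SE 0.045). Epas1, which encodes Hif2α, was scarce, with 22.19, 82.23 and 55.39 (1.84, counting SE 0.178). Cited4 was scarcer with LPS, with 2.375, 46.25 and 15.95 (3.81, counting SE 0.503). Siah1a had 263.1, 413 and 373.6 (0.65, counting SE 0.058). Hif3a, which encodes another α subunit, lay on the lower side like Siah2, with 126.3, 82.38 and 72.8 (−0.61, counting SE 0.102).

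The second list held 76 genes known to respond to hypoxia, 68 of them past the filter. With etoposide 13 were at least 1.5-fold higher and 7 lower, with a median of −0.04, against 23.4% and 14.4% of all genes and a median of 0.04. The split was 10 and 9 with TMM factors and with factors from all genes, 11 and 11 after quantile normalization, and 20 and 6 as deposited. Plod2, a collagen lysyl hydroxylase, had the largest difference (3.95), ahead of Fos (3.91), the heme oxygenase gene Hmox1 (2.00), the mTOR brake Ddit4 (1.82) and Dusp1 (1.23). Pfkfb3 and Pfkp of glycolysis were both at −1.21, Gys1 at −0.95 and Hk2 at −0.73. With KU55933 under etoposide 11 were higher and 9 lower, with a median of −0.06, against 6.93% and 11.9% of all genes and a median of −0.05. As deposited the split was 10 and 13. The metallothionein genes Mt2 (2.65) and Mt1 (1.83) were the highest, and Plod2 (−1.74) and Car12 (−1.48) the lowest. Mxi1, Gys1 and Plod1 were between 0.70 and 0.73, and Pgam1, Hmox1 and Fam162a between −0.77 and −0.70. A set of 17 genes of the list, mostly of glucose uptake and glycolysis, was split off without being planned in advance. It includes Pdk1 and Slc16a3. It leaves out Pfkfb1 (−0.54, and 0.26 with KU55933 under etoposide), Pfkfb3 (−1.21 and 0.18) and Pfkfb4 (−0.43 and 0.50). These Pfkfb genes were all below 0 with etoposide and above 0 with KU55933 under etoposide. Of the 17, 14 were below 0 with etoposide and 14 below 0 with KU55933 under etoposide, with a median of −0.30 in each. Some lay near 0 with etoposide, such as Gpi1 (−0.02) and Gapdh (−0.09), and these counts were not repeated with other scalings. Of all 15614 genes kept, 7348 and 8680 were below 0 in these comparisons. For both compounds against LPS, 15 of the 68 were past 1.5-fold higher and 12 lower (median −0.10), and 7 of the 17 were past it lower and none higher, against 22.0% higher and 14.2% lower of all genes. The split of the 68 was 13 and 15 with factors from all genes, 18 and 8 with library totals, and 19 and 6 as deposited. For the other 51 genes the medians were 0.07, 0.09 and 0.07.

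**Figure D4:**
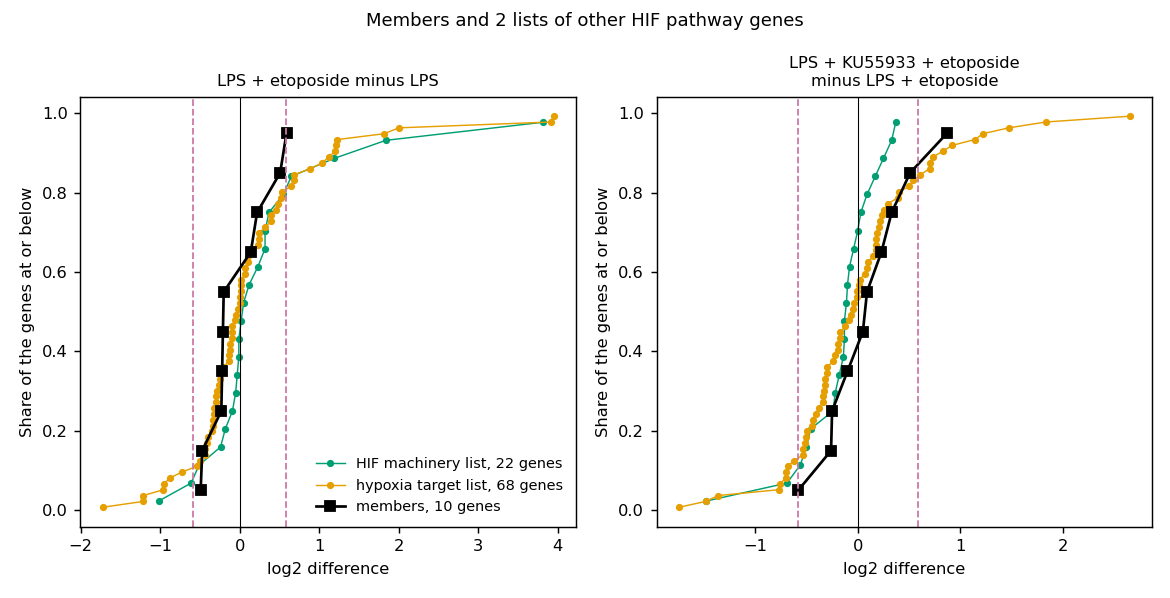
Share of the genes of each set at or below a given log2 difference (x axis) with etoposide (left) and with KU55933 under etoposide (right), for the 10 members and the genes of 2 lists that passed the filter; dashed lines mark 1.5-fold. The members stay between −0.49 and 0.59 on the left, while the lists reach from −1.72 to 3.95. The lists hold more genes, some of them scarce, so that these ranges cannot be compared directly. The −1.72 is Car9, with 25.68 for LPS and 7.104 for etoposide (counting SE 0.299).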

How the data were processed

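Polyadenylated RNA was made into 12 libraries and sequenced with a stranded kit, as single-end reads of 100 bases. Per the labels and the study's methods, the authors trimmed reads with Trim Galore and cutadapt 1.2.1, aligned them to GRCm38 with TopHat2 2.0.12, counted them per Ensembl 78 gene with HTSeq and fitted DESeq2 1.6.3. The strand setting of HTSeq is not given in the sources used here. The deposited table of normalized counts was treated as a signal, because within a condition its columns were exactly proportional. The 3 other deposited files hold the authors' own comparisons (mean, log2 fold change, standard error, statistic and p-values) and were not used.

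Here, library factors were computed by median of ratios over the 13712 genes with at least 10 in every library, and values were divided by them. A gene stayed in when 4 or more libraries reached 10. Differences were taken as log2(value + 1). As the columns hold no spread between replicates, no test was run, and a 1.5-fold difference was counted in its place. The counting SE came from the deposited values summed over a condition, and the intervals are of 95% and cover counting error only. Alternatives tried were a pseudocount of 0.5 or 5, a minimum of 50 or none, TMM factors, quantile normalization, library totals, the columns as deposited, a 2-fold difference and leaving out each replicate. Size factors over all genes and over genes with a mean of at least 100 were added after seeing the data. The 6 scalings named in the report are the main factors, TMM, quantile normalization, library totals and those 2 added ones. The computations used Python 3.11.15, numpy 2.4.6, pandas 2.3.3 and matplotlib 3.10.9, and were tested on simulated data.

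Gene positions and exon lengths are those of a GENCODE annotation on GRCm38, which is later than the one the authors counted on. Promoter sequences are from RefSeq. The members, lists and markers were chosen with earlier results of these data known. From the 2 lists, the 5 genes highest and the 5 lowest past 1.5-fold with a mean of at least 100 were named for etoposide against LPS and for KU55933 under etoposide, besides the members and the 5 genes nearest to Hif1a. The remaining genes of the machinery list past 1.5-fold with etoposide were named outside this rule, some of them with a mean below 100.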

Additional observations from a re-analysis of the deposited data

How the results depend on the processing

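No paired analysis was possible because the columns of a condition hold no spread between libraries. Counts were taken as moved when they changed by over 1.5 times, and medians when they changed by more than the 95% counting error of a member. By these limits, leaving out each replicate moved none of 15 results (counts and medians of the members, counts of the lists and of all genes), which follows from the proportional columns and says nothing about stability. Pseudocounts of 0.5 and 5, no filter, and factors from genes with a mean of at least 100 moved none past these limits, although without a filter the count of all genes with etoposide went from 5893 to 7524 and that of the machinery list with KU55933 under etoposide from 2 to 3, and with factors from genes with a mean of at least 100 that of the hypoxia list against LPS went from 27 to 24.

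The number of members past 1.5-fold with etoposide went from 1 (higher) to 2 with the columns as deposited (both higher), to 2 with size factors from all genes (both lower), and to 0 at 2-fold. It stayed at 1 with TMM factors, but as 1 lower. With KU55933 under etoposide it went from 1 to 3 after quantile normalization, 2 as deposited and 0 at 2-fold. For both compounds against LPS it went from 5 to 3 as deposited and with factors from all genes, and to 0 at 2-fold. The machinery list with KU55933 under etoposide gave 1 gene with a minimum of 50, 4 as deposited and 1 at 2-fold in place of 2. Against LPS it gave 4 after quantile normalization and 3 at 2-fold in place of 7. At 2-fold the hypoxia list gave 12, 8 and 13 genes, and all genes 3164, 999 and 2702, in the order of etoposide against LPS, KU55933 under etoposide and both compounds against LPS.

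The median of the members with etoposide was −0.32 with TMM, −0.14 after quantile normalization, −0.13 with library totals, 0.07 as deposited and −0.35 with factors from all genes. With KU55933 under etoposide it was 0.16 after quantile normalization, 0.13 with library totals and −0.01 as deposited. For both compounds against LPS it was 0.06 with TMM, 0.26 after quantile normalization and with library totals, 0.32 as deposited and 0.02 with factors from all genes. Why the scalings differ was not tested. Deposited values that sum to 752 to 1199 per condition make Egln3 the least precise member.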
